A study of Mus musculus with 16 samples.

Results

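The regions described here carried almost no H3K4me3 in the wild-type mouse hippocampus and more of it in Kdm5c knockout hippocampus. They were picked by CPM, the reads in a region divided by the library's reads over all 35996 regions, times 1e6. A region was taken when its mean was under 1 CPM in the 2 wild-type libraries named wt_HC and at least 2 CPM in the 2 knockout libraries named KO_HC. This left 252 of 35996 regions (0.700%). The same values therefore chose the regions, and everything measured in KO_HC and wt_HC is given only as a description. The regions were judged in 8 libraries that the choice did not use, KO_NE against wt_NE and ifKO against ifwt.

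H3K4me3 was measured by chromatin immunoprecipitation and sequencing (ChIP-seq) in hippocampal tissue of male mice aged 2 to 4 months, and each library was a pool of 2 mice. KO_HC and KO_NE were Kdm5c knockout mice, and wt_HC and wt_NE were wild-type littermates, all on a mixed F1 background of C57 and 129. The NE groups explored a new environment for 1 h before the tissue was taken, and the HC groups did not. The ifKO mice were a second Kdm5c mutant line and ifwt their control littermates, both on a pure C57BL/6J background and without novelty. The labels do not say how, when or in which cells Kdm5c was removed in ifKO mice, so the cohorts differ in the kind of mutation, in strain and in novelty at the same time, and these cannot be told apart. Each group had 2 H3K4me3 libraries of 18181192 to 30435735 counted reads. At these totals 3 reads are 0.0986 to 0.165 CPM. For 1 ifwt library the title says H3K3me3 while its antibody is given as anti-H3K4me3, and the antibody was followed. Single KO and wild-type libraries of Kdm5C and H3K4me1, from pure C57BL/6J mice, cover another list of 2321 regions. The variance between replicates was 7.35 times that of read counting in ifKO and 4.33 times in ifwt (chi-square per degree of freedom over regions), against 2.20 to 2.76 times in the other groups.

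Kdm5c is an X-linked enzyme that removes methyl groups from lysine 4 of histone H3, acting on the di- and trimethylated forms. H3K4me3 marks the starts of active genes, and in neurons Kdm5c is known for keeping genes of the germline silent. In bulk tissue, signal in fewer cells and less signal per cell cannot be told apart. The start of Kdm5c itself (chrX:152232907-152234889) had 61.9 and 62.6 CPM in KO_NE, against 62.7 and 71.2 CPM in wt_NE, and 51.6 and 58.4 CPM in ifKO, against 55.7 and 59.9 CPM in ifwt. Its difference was not called in either comparison (log2 −0.15, edgeR adjusted p = 0.118, and log2 −0.08, edgeR adjusted p = 0.581), and the deleted part of the gene need not lie there. The Kdm5C ChIP values summed to 852275 in the KO library, against 3835440 in the wild-type library, and were lower in KO at 2312 of 2321 regions. H3K4me1 over the same regions summed to 396072 in the KO library, against 645195 in the wild-type library, and was lower in KO at 1659. These are unscaled values of 1 library each. Of 11 hippocampal neuron genes listed, 8 had a region at a start or end, and those 8 had at least 10 CPM in wt_NE. Of 10 markers of blood, liver, muscle and testis soma, 1 had a region there. Markers of other brain regions and of vessels were also marked, since 10 of 11 genes of striatum, thalamus and hindbrain and 10 of 10 endothelial and mural genes had such a region. Of those, 7 and 10 had at least 10 CPM in wt_NE.

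Of the 252 regions, 4 lay at starts of germline genes, which were called higher in KO_NE and not in ifKO. The DNA around those starts is printed here, next to the start of Krt9, a keratin of the skin whose region was called higher in both lines. The windows run from 250 bases before the annotated start to 50 bases after it, 5′ to 3′ on the gene's strand (RefSeq, GRCm38.p6), and capitals mark CpG dinucleotides. They lie at chr1:186967166-186967465 on the plus strand (D1Pas1), chr2:76360404-76360703 on the minus strand (Cyct), chr6:49395289-49395588 on the plus strand (Stk31), chr13:112652261-112652560 on the minus strand (Ddx4) and chr11:100193197-100193496 on the minus strand (Krt9).
D1Pas1: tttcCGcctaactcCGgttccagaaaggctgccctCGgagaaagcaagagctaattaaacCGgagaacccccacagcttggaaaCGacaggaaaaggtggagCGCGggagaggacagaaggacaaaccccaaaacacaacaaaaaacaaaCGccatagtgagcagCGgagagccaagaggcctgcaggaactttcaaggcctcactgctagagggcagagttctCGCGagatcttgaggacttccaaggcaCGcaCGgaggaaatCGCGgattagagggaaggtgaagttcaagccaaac
Cyct: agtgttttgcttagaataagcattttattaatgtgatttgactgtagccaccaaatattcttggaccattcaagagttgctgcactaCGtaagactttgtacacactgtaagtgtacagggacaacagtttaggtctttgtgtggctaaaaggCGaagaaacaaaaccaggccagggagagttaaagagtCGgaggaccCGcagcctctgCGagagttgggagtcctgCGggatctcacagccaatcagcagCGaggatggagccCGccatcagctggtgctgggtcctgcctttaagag
Stk31: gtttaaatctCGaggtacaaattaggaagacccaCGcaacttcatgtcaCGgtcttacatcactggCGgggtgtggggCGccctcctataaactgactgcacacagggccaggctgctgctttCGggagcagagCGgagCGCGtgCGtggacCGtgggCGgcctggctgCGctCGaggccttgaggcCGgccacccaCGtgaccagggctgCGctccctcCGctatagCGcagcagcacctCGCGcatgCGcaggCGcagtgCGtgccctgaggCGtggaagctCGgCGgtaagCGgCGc
Ddx4: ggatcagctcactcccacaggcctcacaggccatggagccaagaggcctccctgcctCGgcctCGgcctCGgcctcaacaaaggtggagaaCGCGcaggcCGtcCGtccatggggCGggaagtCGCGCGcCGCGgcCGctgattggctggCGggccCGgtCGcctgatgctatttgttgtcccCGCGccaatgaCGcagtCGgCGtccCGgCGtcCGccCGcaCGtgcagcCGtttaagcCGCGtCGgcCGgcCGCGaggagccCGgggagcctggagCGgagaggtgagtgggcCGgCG
Krt9: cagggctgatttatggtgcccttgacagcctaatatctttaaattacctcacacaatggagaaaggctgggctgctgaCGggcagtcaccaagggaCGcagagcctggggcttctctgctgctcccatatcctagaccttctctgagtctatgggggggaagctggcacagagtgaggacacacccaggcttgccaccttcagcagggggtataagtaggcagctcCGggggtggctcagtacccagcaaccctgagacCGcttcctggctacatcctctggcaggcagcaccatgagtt

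The windows of Ddx4 and Stk31 were dense in CpG, with 38 and 29 of them and observed over expected ratios of 0.978 and 0.908. D1Pas1 had 15 CpG (ratio 0.707), Cyct 8 (0.466) and Krt9 4 (0.164). In all, 31 windows of 26 genes overlapped 25 of the 252 regions. Their median GC content was 50.7% and their median CpG ratio 0.320, against 61.3% and 0.747 for the 16094 windows that overlapped any H3K4me3 region and 52.7% and 0.384 for all 32851 windows. The E-box CACGTG and the E2F-type sequence GCGGGAA were searched on both strands, and the letters of the 2 motifs do not overlap. CACGTG was in 3 windows (9.68%) at the 252 regions, against 9.79% of windows at any region and 7.15% of all windows. GCGGGAA was in 1 (3.23%), against 8.21% and 4.60%. The 3 windows with CACGTG are that of Ddx4 and 2 overlapping ones of Stk31. The window of Ddx4 also held GCGGGAA. Windows at the other regions under 1 CPM in wt_HC, 254 in all, had medians of 52.7% GC and a CpG ratio of 0.385. CACGTG was in 8.66% of those 254 and GCGGGAA in 3.94%. The table of windows is incomplete, so these shares describe the matched windows only.

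The regions lay mostly away from gene starts. Of the 252, 50 (19.8%) lay within 1 kb of a gene start or a possible start, 148 (58.7%) inside a gene and 54 (21.4%) between genes, while 48.9% of all 35996 regions lay at such starts. A possible start is either end of a gene for which the promoter table gave no window. Of the 50, 41 lay at a start and 9 at an end. The other 6251 near-silent regions, those also under 1 CPM in wt_HC but under 2 CPM in KO_HC, had 10.9% at starts or possible starts. The 252 had a median width of 870.5 bp, against 379 bp for the other near-silent regions and 1019 bp for all regions. CPM is not divided by width, so among near-silent regions the limit of 2 CPM in KO_HC favours wide ones. A strong region (at least 10 CPM in wt_NE) lay within 5 kb of 6 of the 252 (2.38%), against 1.01% of the other near-silent regions and 15.2% of all regions. They were spread over 21 chromosomes, with 2 on X and 1 on Y. Of the 252, 22 lay within 10 kb of another and formed 10 groups, which left 240 separate places.

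None of the 252 overlapped a region of the Kdm5C list, which 2314 (6.43%) of all regions did. Only 3 had such a region within 10 kb, the shortest distance was 7.98 kb and the median distance was 223 kb. The other near-silent regions overlapped none of that list either, with 1.17% of them within 10 kb of it, against 1.19% of the 252, and a median distance of 349 kb. The median distance over all regions was 226 kb. The Kdm5C and H3K4me1 values are listed only for those 2321 regions, so neither was measured here at the 252.

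By the choice itself, the 252 regions had medians of 2.83 and 2.55 CPM in the 2 KO_HC libraries and 0.771 and 0.753 CPM in the 2 wt_HC libraries. In the libraries that the choice did not use, the medians were 2.45 and 2.63 CPM in KO_NE, against 0.817 and 0.756 CPM in wt_NE. They were 1.36 and 1.16 CPM in ifKO, against 0.728 and 0.826 CPM in ifwt. The ifKO medians lay between those of KO_NE and ifwt. In KO_NE, 204 of the 252 had a mean of at least 2 CPM and 0 were under 1 CPM, whereas in wt_NE 0 reached 2 CPM and 186 were under 1 CPM. In ifKO, 68 reached 2 CPM and 98 were under 1 CPM, whereas in ifwt 3 reached 2 CPM and 190 were under 1 CPM.

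**Figure D1:**
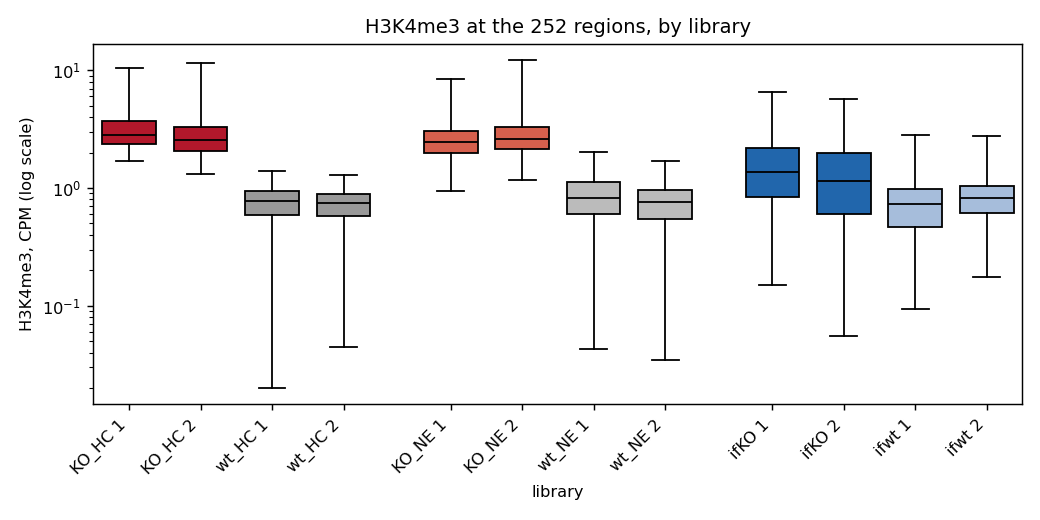
H3K4me3 (CPM, log axis) at the 252 regions in each of the 12 libraries. Boxes give the quartiles and the median, whiskers the lowest and highest region, and a value of 0 is drawn at 0.02. Medians are 2.45 and 2.63 CPM in KO_NE, 0.817 and 0.756 CPM in wt_NE, 1.36 and 1.16 CPM in ifKO, and 0.728 and 0.826 CPM in ifwt. The HC boxes are fixed by how the regions were chosen.

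After novelty, most of the regions carried more H3K4me3 in the knockout. At an edgeR adjusted p under 0.05, 217 of 252 (86.1%) were higher in KO_NE than in wt_NE and 0 were lower, where 11.1% of the 35955 regions tested were called higher. At an unadjusted p under 0.05 edgeR had 243 higher and 0 lower, and the adjusted calls were 199 higher and 0 lower with DESeq2 and 219 higher and 0 lower with limma-voom. The median log2 change was 1.64 (quartiles 1.20 and 2.26, range 0.19 to 4.33), and 252 of 252 changes were above 0. The other near-silent regions had a median of 0.27 with 482 (7.76%) called higher, and the median over all regions was 0.01. Both KO_NE libraries lay above both wt_NE libraries at 249 of the 252 regions, against 35.4% of all regions. The sources used here do not say how the authors defined the region list, so whether the NE libraries helped to define it is not known. All 252 passed the filter on low counts over the 12 libraries, which a region can do through the KO libraries alone.

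In ifKO fewer of the regions were called. Of 252, 74 (29.4%) were called higher than in ifwt and 0 lower, where 4.41% of all regions tested were called higher. At an unadjusted p under 0.05 edgeR had 119 higher and 2 lower, and the adjusted calls were 58 higher and 0 lower with DESeq2 and 65 higher and 0 lower with limma-voom. The median log2 change was 0.64 (quartiles 0.07 and 1.35, range −1.32 to 2.73), with 195 changes above 0 and 57 below. The other near-silent regions had a median of 0.14 with 85 (1.37%) called higher. Both ifKO libraries lay above both ifwt libraries at 143 of the 252 regions, against 22.7% of all regions. On ifKO and ifwt alone, 236 of the 252 passed the filter on low counts, and 69 of those were called higher and 0 lower by edgeR, with a median of 0.72. The count of 74 rests in part on 1 library: without ifKO replicate 1 it was 43.

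**Figure D2:**
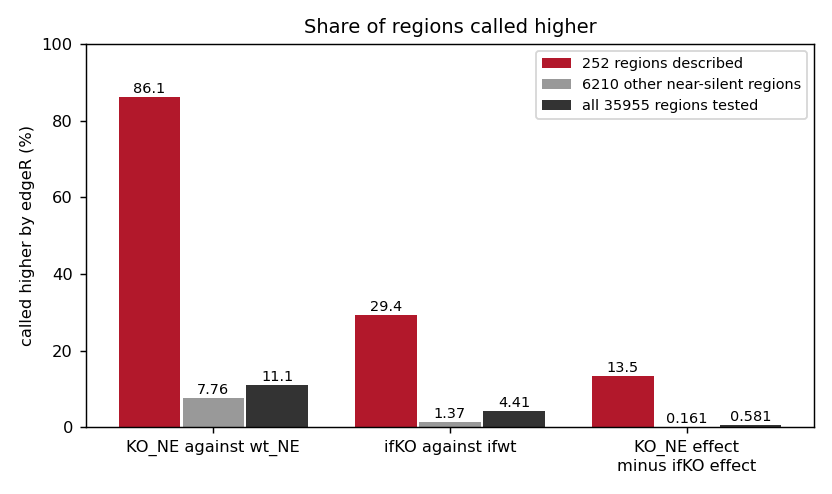
Share of regions called higher by edgeR (percent, adjusted p under 0.05) in KO_NE against wt_NE, in ifKO against ifwt and for the difference between those effects. Bars give the 252 regions, the 6210 other near-silent regions tested and all 35955 regions tested. The 252 stand at 86.1%, 29.4% and 13.5%, against 11.1%, 4.41% and 0.581% of all regions.

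Each of the 74 regions called in ifKO was also called in KO_NE, so 34.1% of the 217 KO_NE calls were shared. Another 143 were called in KO_NE and not in ifKO, 0 in ifKO alone and 35 in neither. The difference between both effects, tested in the same fit, was called at 34 of 252 regions (13.5%), all with the larger effect in KO_NE, where 0.581% of all regions were called in that direction. DESeq2 called 26 and limma-voom 22, and without ifwt replicate 2 edgeR called 9. None was called with the larger effect in ifKO, also at an unadjusted p under 0.05 (edgeR 109 and 0, adjusted DESeq2 and limma-voom 0). The choice by a gain in KO_HC, the same line as KO_NE, favours a larger effect in KO_NE. Of the 34, 25 had an ifKO change below 0, against 57 of all 252, and none of the 34 was called in ifKO. A called difference of this direction itself favours a low ifKO change, so these counts are not independent of it. Among these regions the size of the change in KO_NE said little about that in ifKO. Across the 252 regions Pearson's r was 0.11 and Spearman's rho 0.08, given as a description since the regions share libraries. Both values can be lowered by the choice, which limits the range of KO_NE changes, and by the error of the ifKO changes. The 74 regions called in ifKO had a median KO_NE change of 1.77, against 1.63 for the other regions, and their median ifwt level was 0.788 CPM, against 0.789 CPM.

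**Figure D3:**
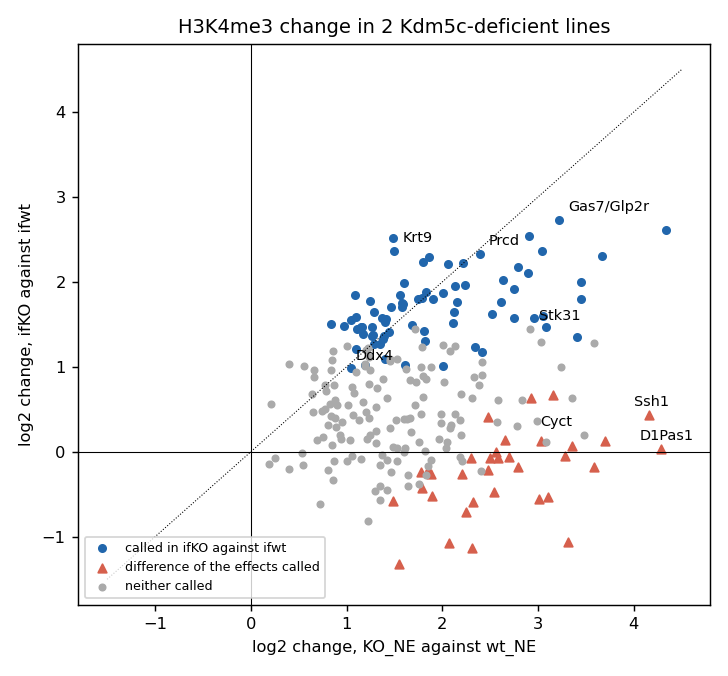
Log2 change in KO_NE against wt_NE (x axis) and in ifKO against ifwt (y axis) for each of the 252 regions. Blue circles are the 74 called in ifKO, red triangles the 34 whose effects differed, and grey circles the rest. The dotted line marks equal change. All points lie right of 0 on the x axis, and 57 lie below 0 on the y axis.

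The 4 germline starts spanned a wide range of KO_NE changes, from 1.62 at Ddx4 to 4.29 at D1Pas1. The region at the start of D1Pas1, a DEAD-box RNA helicase of male germ cells (chr1:186967324-186968158), had 2.17 and 3.47 CPM in KO_NE, against 0.172 and 0.103 CPM in wt_NE. It had 0.149 and 0.275 CPM in ifKO, against 0.141 and 0.261 CPM in ifwt. Both KO_NE libraries stood apart from the rest, while the ifKO and ifwt libraries overlapped near the level of 3 reads. The log2 change was 4.29 ± 0.46 (SE) in KO_NE (edgeR adjusted p = 2.06e-08) and 0.03 ± 0.73 in ifKO (edgeR adjusted p = 0.988). The difference of 4.25 ± 0.94 was called (edgeR adjusted p = 0.0201), but not with limma-voom (adjusted p = 0.0652) or, by edgeR, without KO_NE replicate 2 (adjusted p = 0.0699), ifKO replicate 1 (0.0626), ifwt replicate 2 (0.476) or wt_NE replicate 2 (0.126).

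Cyct, the testis form of cytochrome c (chr2:76359863-76360580), had 2.14 and 1.88 CPM in KO_NE, against 0.0430 and 0.275 CPM in wt_NE, and 0.198 and 0.275 CPM in ifKO, against 0.0939 and 0.304 CPM in ifwt. Its log2 change was 3.48 ± 0.50 in KO_NE (edgeR adjusted p = 5.14e-06) and 0.20 ± 0.77 in ifKO (edgeR adjusted p = 0.928). Like D1Pas1 it overlapped between ifKO and ifwt, but the difference of its effects was not called (3.28 ± 0.98, edgeR adjusted p = 0.166).

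Stk31, a Tudor-domain protein of male germ cells (chr6:49395220-49396103), had 2.96 and 3.39 CPM in KO_NE, against 0.516 and 0.309 CPM in wt_NE. It had 0.893 and 0.990 CPM in ifKO, against 0.329 and 0.348 CPM in ifwt. The groups did not overlap in either line. The log2 change was 2.92 ± 0.35 in KO_NE (edgeR adjusted p = 1.63e-07), and 1.45 ± 0.46 in ifKO, which missed the threshold (edgeR adjusted p = 0.0581).

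Ddx4, the mouse homologue of the germ cell helicase Vasa (chr13:112651877-112652600), had 1.64 and 2.17 CPM in KO_NE, against 0.774 and 0.447 CPM in wt_NE, and 0.595 and 1.87 CPM in ifKO, against 0.563 and 0.652 CPM in ifwt. In ifKO 1 library was high and the other, replicate 1, lay among the controls. Without replicate 1 the fitted log2 change in ifKO was 1.59. Its log2 change was 1.62 ± 0.39 in KO_NE (edgeR adjusted p = 0.00373) and 0.98 ± 0.44 in ifKO (edgeR adjusted p = 0.227). The KO_NE call was lost without KO_NE replicate 2 (edgeR adjusted p = 0.0508) or wt_NE replicate 2 (0.122).

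Of 83 germline and meiosis genes listed for this comparison, 28 had a region at their start (24) or possible start (4). In KO_NE 10 were called higher, where 11.1% of all regions were, and 0 lower, with a median log2 change of 0.15. Of these 10, 4 are the starts above, which were chosen by a gain in KO_HC. The count is thus not independent of the choice. In ifKO 2 of the 28 were called higher, near the 4.41% of all regions, and 0 lower, with a median of 0.16. Besides the 4 above, the KO_NE calls were Sycp3, a synaptonemal complex protein (1.86), Tex14, needed for germ cell bridges (0.53), Cpeb1, a translation regulator (0.48), the meiotic cohesins Stag3 (0.43) and Smc1b (0.34), and Zpbp, a sperm acrosome protein (0.25). In ifKO the calls were Dazl (0.30) and Cpeb1 (0.29). The regions of this list were not all silent, since 17 of 28 had at least 10 CPM in wt_NE. The only regions of any other list among the 252 lay inside Nr4a3 and Flt1, and none at a start.

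**Figure D4:**
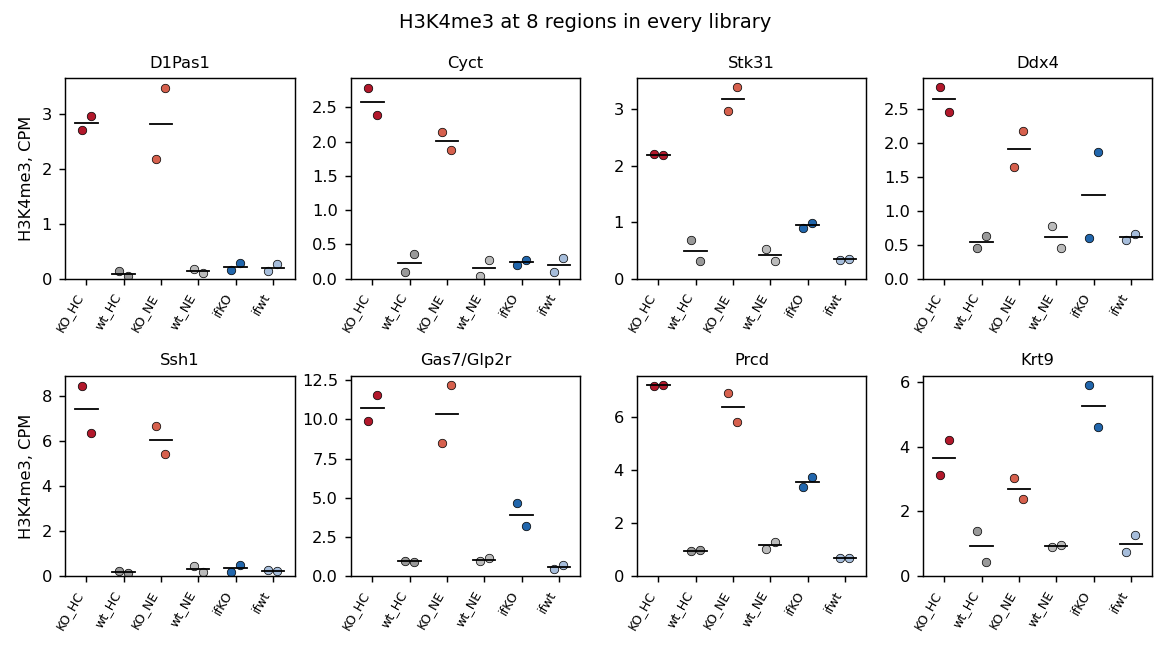
H3K4me3 (CPM) at 8 of the regions in every library. Points are libraries, bars are group means, and each panel has its own linear axis from 0. D1Pas1, Cyct and Ssh1 are high only in the KO libraries, with ifKO and ifwt overlapping, while the Gas7/Glp2r, Prcd and Krt9 regions are also high in both ifKO libraries.

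Of all regions tested 11.1% were called higher in KO_NE and 4.41% in ifKO, against 86.1% and 29.4% of the 252. Of the 50 regions at starts or possible starts, 24 were at protein-coding genes, of which 21 were called higher in KO_NE and 7 in ifKO. The other 26 were at genes annotated as noncoding, with 21 and 8 calls. Those called in both lines included the starts of Gpr161, a ciliary receptor of the Hedgehog pathway, Klk10, a kallikrein-type serine protease, Krt9, Myh7, the slow myosin heavy chain of heart and muscle, Tmem144 and Rskr. Myh7 averaged 2.60 CPM in KO_NE and 1.14 CPM in wt_NE, and 4.20 CPM in ifKO and 1.52 CPM in ifwt. Tmem144 averaged 2.01 CPM in KO_NE and 0.554 CPM in wt_NE, and 2.26 CPM in ifKO and 0.470 CPM in ifwt. Each of these changes was called. At the start of an Slc6a9 transcript, the glial glycine transporter, the region averaged 2.84 CPM in KO_NE and 1.04 CPM in wt_NE (log2 1.42 ± 0.31, edgeR adjusted p = 0.00132), but 1.03 CPM in ifKO and 1.10 CPM in ifwt (log2 −0.09 ± 0.38, edgeR adjusted p = 0.931). The 3 at coding starts not called in KO_NE were Ptgds, the brain prostaglandin D synthase (0.84), Elmo2, an engulfment adaptor (0.64), and Gnb5, a G protein beta subunit (0.85).

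Regions of every position class were called in KO_NE. Of those at starts or possible starts 84% were called higher, of those inside genes 87.8% and of those between genes 83.3%, with median log2 changes of 1.55, 1.62 and 1.77. In ifKO the shares were 30%, 34.5% and 14.8%, with medians of 0.66, 0.79 and 0.56. These shares were not tested against each other. Of all regions tested 11.1% were called higher in KO_NE and 4.41% in ifKO, and each class here was chosen by a gain in KO_HC.

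Of the 12 largest called changes in KO_NE, 10 lay inside or between genes, near the share in all 252 (58.7% inside and 21.4% between). The largest was inside Matn2, a gene for an extracellular matrix protein (chr15:34400396-34401124), with 1.91 and 3.14 CPM in KO_NE, against 0.215 and 0.0344 CPM in wt_NE, and 2.08 and 1.54 CPM in ifKO, against 0.188 and 0.391 CPM in ifwt. All 4 mutant libraries were above all 4 controls, and both changes were called (log2 4.33 ± 0.54, edgeR adjusted p = 3.34e-07, and 2.61 ± 0.50, edgeR adjusted p = 0.000734). Only 6 wt_NE reads stand behind the first of those. The region inside Ssh1, a phosphatase that acts on cofilin (chr5:113942805-113943958), had 6.67 and 5.44 CPM in KO_NE, against 0.473 and 0.206 CPM in wt_NE, and 0.198 and 0.495 CPM in ifKO, against 0.282 and 0.217 CPM in ifwt. The KO_NE libraries were high and the ifKO libraries overlapped their controls, and the difference of effects was 3.72 ± 0.78 (edgeR adjusted p = 0.0120), not called without ifwt replicate 1 (edgeR adjusted p = 0.141), ifwt replicate 2 (0.104) or wt_NE replicate 2 (0.0876).

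A region inside Sptbn5, a beta-spectrin gene (chr2:120045965-120046953), had 2.89 and 3.22 CPM in KO_NE, against 0.215 and 0.241 CPM in wt_NE, and 2.33 and 3.79 CPM in ifKO, against 0.516 and 0.696 CPM in ifwt. It rose in both lines (log2 3.66 and 2.30, edgeR adjusted p = 8.94e-09 and 1.14e-05). Inside Lingo1, a gene for a neuronal membrane protein that limits axon growth, the KO_NE change was 3.41 ± 0.36 (edgeR adjusted p = 1.77e-08). Its ifKO change of 1.35 ± 0.39 was called by edgeR (adjusted p = 0.0333) but not by DESeq2 (0.0819) or limma-voom (0.0967), nor by edgeR without ifKO replicate 1 (0.309), ifwt replicate 1 (0.123) or ifwt replicate 2 (0.151). The remaining large KO_NE changes were near Cdk19 (3.70), inside Tmem63a (3.59), near 1500009L16Rik (3.58), near Slc23a4 (3.45), inside 4933407E24Rik (3.44) and near Rere (3.36). Of these 6, those near Slc23a4 (2.00) and inside 4933407E24Rik (1.80) were also called in ifKO, the second not without ifKO replicate 1 (edgeR adjusted p = 0.0728) or ifwt replicate 2 (0.0954).

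The regions with the smallest p-values in ifKO were called in both lines. A region where Gas7 and Glp2r overlap (chr11:67665170-67666830) had 8.48 and 12.2 CPM in KO_NE, against 0.946 and 1.17 CPM in wt_NE. It had 4.66 and 3.19 CPM in ifKO, against 0.469 and 0.696 CPM in ifwt. All mutant libraries lay above all controls, and the log2 changes were 3.22 ± 0.24 and 2.73 ± 0.31 (edgeR adjusted p = 5.69e-12 and 1.75e-07). A region inside Prcd, a gene for a photoreceptor disc protein (chr11:116659477-116660725), had 6.93 and 5.81 CPM in KO_NE, against 1.03 and 1.31 CPM in wt_NE, and 3.37 and 3.74 CPM in ifKO, against 0.704 and 0.696 CPM in ifwt. Its changes were 2.39 ± 0.22 and 2.33 ± 0.27 (edgeR adjusted p = 8.15e-10 and 3.2e-07), with a difference of 0.06 ± 0.40 (edgeR adjusted p = 0.986).

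Some regions had the larger fitted change in ifKO. At the start of Krt9 (chr11:100192232-100193424) there were 3.02 and 2.38 CPM in KO_NE, against 0.903 and 0.962 CPM in wt_NE, and 5.90 and 4.62 CPM in ifKO, against 0.751 and 1.26 CPM in ifwt. The changes were 1.49 ± 0.32 and 2.37 ± 0.31 (edgeR adjusted p = 0.00127 and 2.5e-06), and their difference of −0.87 ± 0.47 was not called (edgeR adjusted p = 0.674). Near Zfp383 the changes were 1.87 and 2.29. Of the 74 regions called in ifKO, 33 had a larger fitted change there than in KO_NE, none of them with a called difference. Others with small ifKO p-values were inside Slc2a9, a urate transporter (2.91 in KO_NE and 2.54 in ifKO), inside Eef1a2, a translation elongation factor of neurons and muscle (2.75 and 1.92), inside Gm10432 (3.04 and 2.36) and near Adgb (2.90 and 2.11).

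The 5 smallest p-values for the difference between lines came from regions with almost no ifKO signal above ifwt, except at BC024139. At the start of Gm16013 (chr11:71434923-71436669) there were 6.93 and 7.69 CPM in KO_NE, against 0.860 and 0.790 CPM in wt_NE, and 0.695 and 0.880 CPM in ifKO, against 0.892 and 1.35 CPM in ifwt. The KO_NE libraries stood far above the others, and the ifKO libraries lay under both ifwt libraries. The changes were 3.10 ± 0.25 and −0.53 ± 0.35, and the difference of 3.63 ± 0.43 was called (edgeR adjusted p = 7.01e-06). A region inside Gm36855 (chr9:43518967-43519979) had 3.65 and 3.93 CPM in KO_NE, against 0.473 and 0.275 CPM in wt_NE, and 0.496 and 0.385 CPM in ifKO, against 0.986 and 0.870 CPM in ifwt. Its ifKO change of −1.06 ± 0.42 was not called (edgeR adjusted p = 0.153), and the difference was 4.38 ± 0.54 (edgeR adjusted p = 1.23e-05). At an end of BC024139 (chr15:76124386-76125995) there were 7.89 and 6.90 CPM in KO_NE, against 0.774 and 0.825 CPM in wt_NE, and 2.48 and 1.54 CPM in ifKO, against 1.03 and 1.48 CPM in ifwt. There the ifKO libraries lay above ifwt without a call (log2 0.67 ± 0.31, edgeR adjusted p = 0.235), and the difference was 2.48 ± 0.43 (edgeR adjusted p = 0.00160). Near 1500009L16Rik the difference was 3.76 ± 0.59 (edgeR adjusted p = 0.000400) and near Cdk19 3.57 ± 0.62 (edgeR adjusted p = 0.00165). Without ifwt replicate 2 the difference was no longer called at BC024139 or near 1500009L16Rik (edgeR adjusted p = 0.0750 for both).

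Neighbouring regions were not always called alike in ifKO, and their changes were not tested against each other. Inside Sphkap, a gene for a protein that anchors protein kinase A, 3 regions within chr1:83273798-83277173 had KO_NE changes of 2.09, 2.12 and 1.40, each called, and ifKO changes of 0.31, 1.64 and 1.52, of which the last 2 were called. Inside Mpped1, a metallophosphoesterase gene, 3 regions had KO_NE changes of 1.19, 2.06 and 2.64 and ifKO changes of 1.00, 2.21 and 2.02, of which the last 2 were called. The first KO_NE call there was lost with DESeq2 (adjusted p = 0.0745), with edgeR offsets fitted to region strength (0.0582), and by edgeR without KO_NE replicate 1 (adjusted p = 0.0659), KO_NE replicate 2 (0.108) or wt_NE replicate 2 (0.409). The pair at Krt9 was called in both lines. The pair inside Taf4b, a TFIID subunit enriched in gonads, was called in KO_NE (1.21 and 1.60) with ifKO changes of 0.15 and −0.01. The pair at an end of Nmral1 was called in KO_NE (2.99 and 2.21) with ifKO changes of 0.37 and −0.26, and the difference between lines was called at the second (2.47, edgeR adjusted p = 0.0486).

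At the other end, 35 of the 252 were not called in KO_NE, with log2 changes of 0.19 to 1.03. The lowest were inside Adgrg1, an adhesion receptor gene (0.19), inside 2600014E21Rik (0.21), at an end of Gm39903 (0.26), inside Crtc3, a CREB coactivator gene (0.40), and inside Nr4a3, a nuclear receptor gene induced by neuronal activity (0.40). The Adgrg1 region had 2.04 and 2.17 CPM in KO_NE, against 2.02 and 1.58 CPM in wt_NE, so its wild-type level after novelty was above the limit used to choose it. The Nr4a3 region had 2.17 and 2.01 CPM in KO_NE, against 1.38 and 1.68 CPM in wt_NE, and 1.98 and 1.27 CPM in ifKO, against 0.798 and 0.783 CPM in ifwt. It was not called in KO_NE (edgeR adjusted p = 0.364) or ifKO (log2 1.04 ± 0.35, edgeR adjusted p = 0.0846). Without ifKO replicate 2 the fitted ifKO change was 1.33. The region inside Flt1, a receptor of vascular endothelial growth factor and an endothelial marker, changed by 0.94 ± 0.28 in KO_NE (edgeR adjusted p = 0.0184), and by 0.15 in ifKO. DESeq2 did not make the KO_NE call (adjusted p = 0.0739), and edgeR did not without KO_NE replicate 2 (adjusted p = 0.197), wt_NE replicate 1 (0.120) or wt_NE replicate 2 (0.0676).

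The regions nearest to the limits of the choice are given here as a description. Just inside the wt_HC limit were Raly (3.89 CPM in KO_HC and 0.989 CPM in wt_HC), Ptgds (2.13 and 0.988 CPM) and a region near Zcchc2 (2.78 and 0.987 CPM), and just outside it were B4galnt4 (2.91 and 1.01 CPM), E130006D01Rik (3.51 and 1.01 CPM) and Sytl2 (3.08 and 1.01 CPM). Just inside the KO_HC limit were Creb5 (2.01 CPM in KO_HC and 0.806 CPM in wt_HC), Elmo2 (2.01 and 0.901 CPM) and Mpped1 (2.01 and 0.672 CPM), and just outside it were Zmiz1 (2.00 and 0.739 CPM), Acin1 (1.99 and 0.648 CPM) and a region near Suds3 (1.99 and 0.403 CPM).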

How the data were processed

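CPM is a region's reads divided by the library's reads over all regions, times 1e6. The deposited H3K4me3 files hold raw read counts per region, 36005 rows each, of which 9 repeated rows were dropped. The Kdm5C and H3K4me1 files are headed as raw counts, but the deposited values behave as signal, summed base coverage in steps of 50, and were used only for overlap and totals. The submitters' processing notes name the GRCm38 (mm10) build, MACS2 2.1.0, Bowtie2 2.2.9, featureCounts, SAMtools 1.3.1, DESeq2 1.10.0 and R 3.3. The rule that defined the regions is not given here.

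The 252 regions, the gene lists and the tests were chosen with earlier results of these data known. Counts of all 12 H3K4me3 libraries were fitted with edgeR 4.0.16 (quasi-likelihood, TMM scaling, 1 mean per group, R 4.3.3), and p-values were adjusted by Benjamini-Hochberg over the 35955 regions left by the count filter, which removed 41. DESeq2 1.42.0 and limma 3.58.1 were alternatives. The steps were tested on simulated data. Values after ± in the text are standard errors of log2 changes. Regions are named by the gene at whose start (or end, where no start was given) they lie, else by the gene around them, else as near the closest coding gene. Named regions are the 12 largest called KO_NE changes without overlap, the 8 smallest p-values in ifKO, those at germline or other listed genes, the 5 lowest KO_NE changes, the 3 on each side of each limit and the 5 clearest differences between lines. Gene-start and neighbouring regions were added after their values were seen. Each library is its own pool of mice, and limits from 3 reads cover counting error only. Of the regions at coding genes, 1 is not reported here by name.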

Additional observations from a re-analysis of the deposited data

Results flagged for a closer look

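The effect of Kdm5c loss differed between KO_NE and ifKO at 34 of the 252 regions, by a contrast of both effects in the edgeR fit, each time with the larger effect in KO_NE. Among the named regions the difference in log2 change was 4.38 inside Gm36855, 4.25 at D1Pas1, 3.76 near 1500009L16Rik, 3.72 inside Ssh1, 3.63 at Gm16013, 3.57 near Cdk19 and 2.48 at BC024139. The regions were chosen by a gain in KO_HC, the same line as KO_NE, which favours a larger effect in KO_NE. The lines also differ in strain and in exposure to novelty, and the part of each in these differences cannot be told apart.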

How the results depend on the processing

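No called result changed direction under any setting run. With offsets fitted to region strength the median KO_NE change was 1.46 and 1 region was called lower in ifKO. Choosing regions by every library kept 134, of which 125 were called in KO_NE (median 2.03) and 46 in ifKO. A stricter choice (under 0.5 CPM in wt_HC, at least 4 CPM in KO_HC) kept 9, of which 9 were called in KO_NE (median 3.08), 1 in ifKO (median 0.13), 5 in the difference, and 4 lay inside genes. With limma-voom 22 differences were called. Leaving out each library in turn gave 156 to 195 KO_NE calls (median 1.59 to 1.80), 43 to 76 ifKO calls (median 0.52 to 0.83) and 9 to 31 differences, the lowest without ifwt replicate 2 and 20 without wt_NE replicate 2. With the replicate number as a block the counts were 215, 73 and 33. Same-numbered libraries showed almost no shared deviation (correlation −0.01 for HC, 0.01 for NE and −0.04 for the if groups). With 2 libraries per group this cannot show whether pools were prepared as pairs. Each named region was also counted once per setting, whether called or not. For KO_NE 467 such results stayed on their side of the threshold, 13 calls were lost and 1 was gained. These numbers were 451, 16 and 2 in ifKO and 581, 10 and 0 for the difference, whose settings were chosen after seeing the data. Regions that were never called count as unchanged, so the numbers do not give the share of calls lost. The 10 lost differences were at D1Pas1, Ssh1, BC024139 and near 1500009L16Rik.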

Other observations

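The region at an end of Camk2a, a kinase of excitatory forebrain neurons and no member of the 252, was 1.02 higher on the log2 scale in ifKO than in ifwt (edgeR adjusted p = 3.17e-13) and changed by 0.13 in KO_NE against wt_NE (edgeR adjusted p = 0.156). The other 7 hippocampal neuron genes with a region at a start or end were not called in ifKO.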
